A study of Homo sapiens with 12 samples.

Results

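The human genome encodes the collagens as a large family of genes whose symbols share 1 form, COL, a type number, A and a chain number, and all rows of the deposited gene count table with a symbol of that form were examined. There were 44 such genes among 19447 rows. They were followed across 12 libraries in 4 groups of 3. The human line K562, which was established from chronic myeloid leukemia and has the BCR-ABL fusion, was the untreated control. K562+L was the same line given 6 µM lycorine, an alkaloid of the Amaryllidaceae. K562/IM was the imatinib-resistant line that was derived from K562 by stepwise exposure to imatinib and then kept in 5 µM of the drug. The fourth group was labelled K562/IM+L, which is that resistant line with 6 µM lycorine. The study's methods give exposure times to lycorine for other assays but none in the sequencing section, K562/IM is a single derived line, and nothing says that the 3 libraries of a group came from separate cultures, so that p-values measure only the spread between these libraries. Polyadenylated RNA was sequenced, and total counts ran from 75093844 to 107344598 per library.

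The labels of the last group were examined first, because the study's figures use another group code for it than the sample titles do. The efflux pump gene ABCB1, often raised in drug-selected lines, had 23.0, 21.9 and 25.9 CPM (counts per 1000000 counts of the scaled library) in the 3 K562/IM libraries and 0.705, 0.488 and 1.06 CPM in the libraries labelled K562/IM+L. K562 had 1.68, 1.86 and 1.72 CPM and K562+L had 3.83, 3.84 and 5.15 CPM. ABCB1 in the libraries labelled K562/IM+L was thus below that of every library of both lines, and a difference between those libraries and K562/IM may be one of treatment or one in what cells they hold, which cannot be told apart. For this reason the word labelled is kept with this group, as the labelled libraries. The summed CPM of 6 erythroid and K562 genes (GATA1, TAL1, KLF1, HBG1, HBG2 and HBZ) was 5022 to 7593 in K562, 3589 to 4236 in K562+L, 1854 to 2067 in K562/IM and 29734 to 42766 in the labelled libraries, and its part in the results was not tested.

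Collagens are secreted or membrane-anchored proteins built from 3 chains wound into a triple helix, and the chains of 1 type are often encoded by separate genes. Fibrillar collagens form the fibres of bone, tendon and skin, type IV forms the sheet of basement membranes, type VI forms beaded filaments, and the FACIT class decorates the surface of fibrils. The multiplexins, types XV and XVIII, sit in basement membrane zones, and a C-terminal fragment of type XVIII is known as endostatin. Chains are hydroxylated and folded in the endoplasmic reticulum with the chaperone HSP47 (SERPINH1) before they are exported, trimmed, cross-linked and bound by receptors on cells. Blood cells are not the main source of these proteins in the body.

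The 6 type IV genes lie in head-to-head pairs on opposite strands. In GENCODE release 29 (GRCh38) the annotated starts of COL4A5 and COL4A6 on the X chromosome lie 347 bases apart. Those of COL4A3 and COL4A4 on chromosome 2 lie 112 bases apart, and in both pairs 1 stretch of DNA lies in front of both genes. On chromosome 13 the annotated starts of COL4A1 and COL4A2 lie 1421 bases apart, but these genes overlap there. COL4A2 starts at 110305812, inside COL4A1 (110148963 to 110307233). The RefSeq window of COL4A2 below is of another start. The RefSeq start windows below (GRCh38.p14, 250 bases before a start to 50 after it, read 5′ to 3′ on the strand of the named gene) are shown because the members of these pairs differed in level within the same libraries. Capitals mark the bases that also lie in the partner's window, which were 121 bases for COL4A5, 82 for COL4A4 and 226 for COL4A2.
COL4A5, chrX:108439588-108439887, + strand, shared with COL4A6: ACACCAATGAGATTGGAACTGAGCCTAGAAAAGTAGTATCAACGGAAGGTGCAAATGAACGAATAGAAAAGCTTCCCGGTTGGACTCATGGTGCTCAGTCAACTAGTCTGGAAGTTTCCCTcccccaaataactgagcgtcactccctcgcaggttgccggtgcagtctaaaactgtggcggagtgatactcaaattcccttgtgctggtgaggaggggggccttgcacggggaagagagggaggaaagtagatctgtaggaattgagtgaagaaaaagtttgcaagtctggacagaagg
COL4A4, chr2:227164156-227164455, − strand, shared with COL4A3: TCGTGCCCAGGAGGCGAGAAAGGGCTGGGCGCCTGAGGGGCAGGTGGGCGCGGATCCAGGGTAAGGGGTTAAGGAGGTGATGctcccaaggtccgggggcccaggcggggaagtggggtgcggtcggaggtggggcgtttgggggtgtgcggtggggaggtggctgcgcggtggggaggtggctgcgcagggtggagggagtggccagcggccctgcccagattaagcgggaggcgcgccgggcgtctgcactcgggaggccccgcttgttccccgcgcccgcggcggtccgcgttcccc
COL4A2, chr13:110307034-110307333, + strand, shared with COL4A1: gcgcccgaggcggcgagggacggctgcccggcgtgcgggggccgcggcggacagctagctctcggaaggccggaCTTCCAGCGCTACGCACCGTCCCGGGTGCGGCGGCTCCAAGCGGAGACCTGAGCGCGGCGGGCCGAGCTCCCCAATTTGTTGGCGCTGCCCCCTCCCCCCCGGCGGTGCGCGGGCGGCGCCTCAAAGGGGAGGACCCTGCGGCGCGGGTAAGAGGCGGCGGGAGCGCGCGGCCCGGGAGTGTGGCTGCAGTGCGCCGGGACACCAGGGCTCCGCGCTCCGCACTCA

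The pair of windows of COL18A1, the collagen with the highest level in all 4 groups, is shown for the contrast between its start sites. Capitals mark GGGCGG, the core of a GC box, on either strand. The first window held 9 of these motifs and 46 CpG dinucleotides, and the second, further into the gene, held 1 motif and 10 CpG dinucleotides.
COL18A1, first window, chr21:45404915-45405214, + strand: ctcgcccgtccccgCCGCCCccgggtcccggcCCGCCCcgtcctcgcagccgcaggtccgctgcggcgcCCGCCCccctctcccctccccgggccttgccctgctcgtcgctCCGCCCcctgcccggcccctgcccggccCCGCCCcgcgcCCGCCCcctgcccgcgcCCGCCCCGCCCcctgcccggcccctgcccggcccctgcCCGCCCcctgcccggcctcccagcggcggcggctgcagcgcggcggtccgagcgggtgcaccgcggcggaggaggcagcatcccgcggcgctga
COL18A1, second window, chr21:45455272-45455571, + strand: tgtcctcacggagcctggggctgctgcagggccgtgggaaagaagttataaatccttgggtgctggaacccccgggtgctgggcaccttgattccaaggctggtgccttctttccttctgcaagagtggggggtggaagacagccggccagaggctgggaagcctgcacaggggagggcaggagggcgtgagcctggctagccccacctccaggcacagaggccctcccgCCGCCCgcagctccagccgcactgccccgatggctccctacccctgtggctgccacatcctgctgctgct
RefSeq windows were given for 32 of the 44 genes, 44 windows in all. GGGCGG on either strand occurred in 54.5% of them and in 45.0% of all 35116 windows, and TATAAA in 18.2% and 11.5%. The erythroid factor motif AGATAA was found, again on either strand, in 9.09% of the collagen windows and in 10.3% of all. The median number of CpG dinucleotides was 17 in the collagen windows and 14 in all windows.

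A collagen was counted as above the low-count floor in a group when each of its 3 libraries reached 0.114 CPM, which is 10 counts at the median library size. By this measure 15 of 44 collagens were above the floor in K562, 17 in K562+L, 26 in K562/IM and 22 in the labelled libraries. The 15 of K562 were above it in all 4 groups: COL1A1, COL11A2, COL4A2, COL4A4, COL4A5, COL6A1, COL6A5, COL7A1, COL9A2, COL9A3, COL15A1, COL18A1, COL21A1, COL23A1 and COL25A1. In K562/IM alone 6 were above the floor, COL1A2, COL3A1, COL6A3, COL11A1, COL19A1 and COL26A1. In the labelled libraries alone 3 were, COL2A1, COL8A2 and COL9A1, and in K562+L alone 1 was, COL5A1. Both groups named for the resistant line had 4 more, COL4A6, COL5A2, COL6A2 and COL24A1, and COL10A1 was above the floor in K562+L and K562/IM.

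The remaining 14 collagens were above the floor in no group: COL4A1, COL4A3, COL5A3, COL6A6, COL8A1, COL12A1, COL13A1, COL14A1, COL16A1, COL17A1, COL20A1, COL22A1, COL27A1 and COL28A1. Single libraries reached up to 0.262 CPM among them, in COL14A1 of K562. COL22A1 had no count in any of the 12 libraries. A count of 0 over a group allows up to 3 counts over that group, and since low counts in this table pile up near multiples of 4, 3 fragments would be about 12 counts. Of the fibrillar genes 2 of 11 were above the floor in K562, 3 in K562+L, 7 in K562/IM and 5 in the labelled libraries. Of the beaded filament genes 2 of 5, 2, 4 and 3 were, in the same order, and of the FACIT genes 3 of 10, 3, 4 and 4. The plot of all members by library shows these patterns as rows that light up in 1 group.

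**Figure D1:**
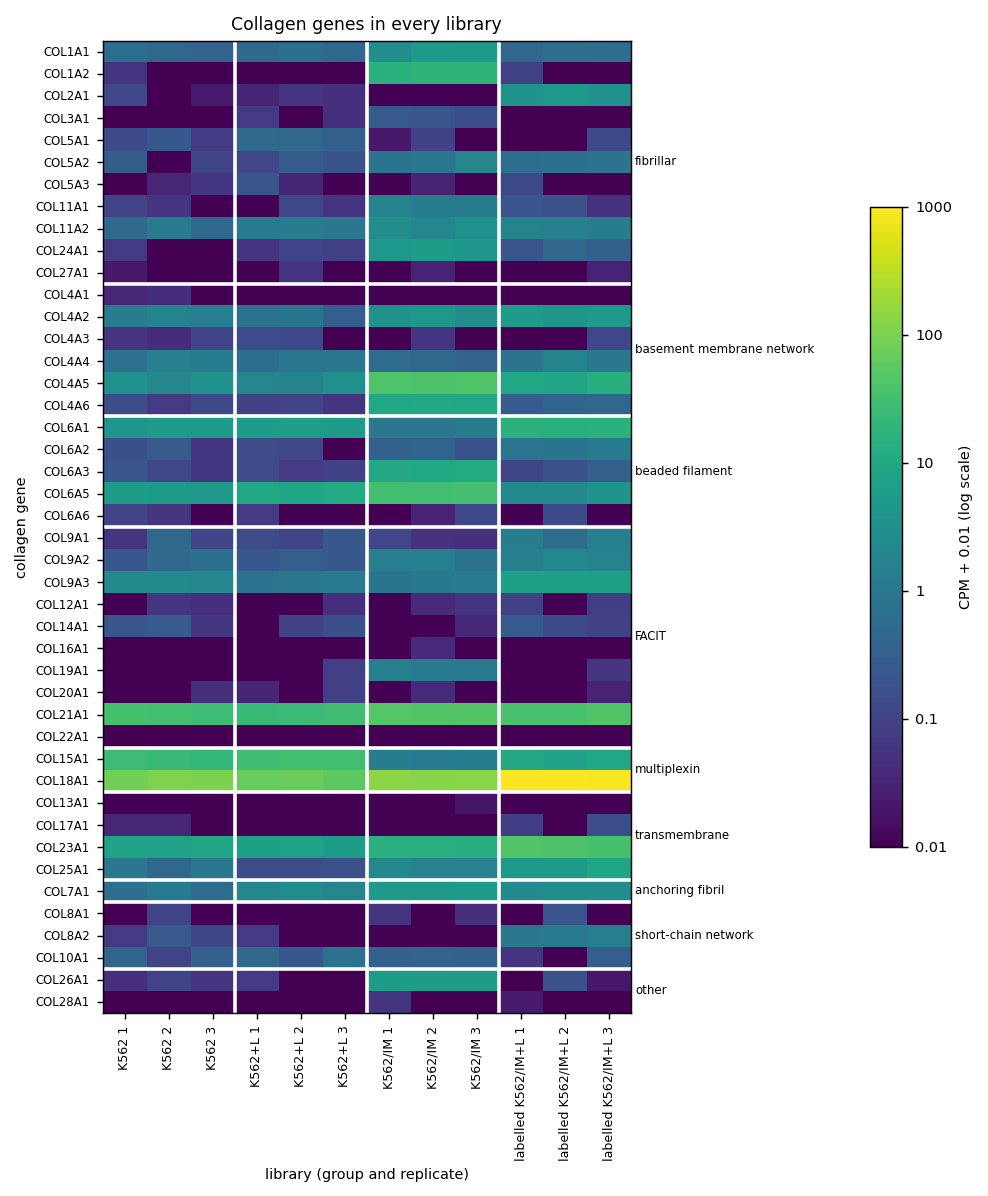
Each row is a collagen gene, grouped by structural class, and each column is a library; colour gives CPM + 0.01 on a log scale, so that 0 counts appear at 0.01. COL18A1 is the brightest row in all 4 groups, 6 rows are above the floor in K562/IM alone, and COL22A1 is dark throughout.

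Summed over the 44 genes, collagen transcripts made up 188 ± 10.2 CPM in K562, 155 ± 6.86 CPM in K562+L, 339 ± 5.40 CPM in K562/IM and 1068 ± 25.1 CPM in the labelled libraries (mean ± SD, n = 3). COL18A1 alone was 53.1% of that sum in K562, 42.0% in K562+L, 37.9% in K562/IM and 85.7% in the labelled libraries. Without it the sums were 87.9 ± 6.30, 89.8 ± 3.71, 210.1 ± 4.40 and 153 ± 6.96 CPM in the same order, so that K562/IM had the highest sum of the other collagens. In CPM per kilobase of exon (RPKM, over the merged exons of GENCODE 29), which allows genes of different length to be set side by side, COL18A1 was first in every group at 11.7, 7.66, 15.1 and 107 RPKM. COL21A1 and COL15A1 followed in K562 at 4.63 ± 0.529 and 3.57 ± 0.465 RPKM (SD, n = 3), and the lowest COL21A1 library was close to the highest COL15A1 library. COL21A1, COL23A1 and COL4A5 followed in K562/IM at 6.47 ± 0.270, 3.79 ± 0.185 and 3.58 ± 0.151 RPKM, and the libraries of the last pair overlapped. COL23A1, COL21A1 and COL6A1 followed in the labelled libraries at 10.6 ± 1.16, 5.49 ± 0.525 and 2.94 ± 0.179 RPKM. In bulk RNA a change in the share of cells that carry a transcript and a change in the RNA per cell cannot be told apart.

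The resistant line was compared with its parent to ask how its collagen transcripts differ. All 7 fibrillar genes tested were called higher in K562/IM than in K562, 5 of them from under the floor in K562, so that they entered the test through K562/IM. Of the 4 type IV genes tested 3 were called higher and 1 lower, and of the 4 type VI genes 2 higher and 1 lower. Genes were called when the quasi-likelihood test of edgeR gave them an adjusted p (Benjamini-Hochberg, over all genes tested) under 0.05 and their log2 fold change was over 1 in size. Each SE of a log2 fold change or difference was derived from its size and the square root of F, the statistic of that test. It was their ratio, not a separately fitted standard error, and can be too small where a group is near 0. Of the 15 collagens above the floor in both groups, 8 were called higher and 4 lower, where 15.1% of all genes above the floor in these 6 libraries were called in either direction. Over all 26 collagens that passed the low-count filter 21 were called, 17 higher and 4 lower, against 19.1% of all genes tested (1857 higher and 709 lower), but 9 of those called were not above the floor in K562 and entered the test through K562/IM. Of the 26, the lower 4 were COL15A1, COL6A1, COL9A3 and COL4A4.

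Among the fibrillar chains, both chains of type I collagen, the main protein of bone and tendon, were higher in K562/IM. COL1A2 (chr7:94394561-94431232), which encodes the α2 chain, had 15.4, 18.1 and 18.0 CPM in the 3 K562/IM libraries and 0.0491, 0 and 0 CPM in K562. Only 1 K562 library had any count of it, so that its fitted log2 fold change of 9.91 (SE 0.45, adjusted p = 2.84e-06) rests on 4 counts on that side. COL1A1 (chr17:50183289-50201632), which encodes the α1 chain, had 2.80, 5.26 and 4.78 CPM in K562/IM and 0.638, 0.453 and 0.360 CPM in K562, with no overlap and a log2 fold change of 3.14 (SE 0.33, adjusted p = 1.58e-04). In K562/IM COL1A2 was the higher of the pair by CPM, and per kilobase it was 1.54 ± 0.138 RPKM against 0.436 ± 0.132 RPKM for COL1A1. Type I molecules usually hold more α1 than α2 chains, and in the other 3 groups COL1A2 was at or near 0 while COL1A1 stayed above the floor.

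COL24A1, a fibrillar chain of developing bone and cornea, had 4.67, 5.64 and 4.28 CPM in K562/IM against 0.0614, 0 and 0 CPM in K562. COL11A1, a chain of cartilage fibrils, had 1.70, 1.28 and 1.25 CPM against 0.0982, 0.0477 and 0 CPM. Its partner chain COL11A2 was above the floor everywhere and had 2.90, 1.94 and 3.28 CPM against 0.503, 1.10 and 0.502 CPM. Each of these was higher in all 3 K562/IM libraries than in any K562 library. COL5A2, a chain that regulates fibril diameter, had 0.850, 0.905 and 1.84 CPM against 0.295, 0 and 0.103 CPM, and its call rested on 1 library: without K562/IM replicate 3 the adjusted p was 0.0774. COL3A1, the chain of reticular fibres, had 0.251, 0.208 and 0.149 CPM and no count in K562, which puts it at least 16.1-fold higher against a floor of 3 counts over the group, or 4.03-fold against 12. COL2A1, the cartilage chain, had no count in K562/IM and 0.110, 0 and 0.0129 CPM in K562.

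Of the type IV genes, both members of the COL4A5 and COL4A6 pair were higher. COL4A5 (chrX:108439844-108697545) had 42.8, 40.5 and 44.1 CPM in K562/IM and 3.30, 2.01 and 3.41 CPM in K562, a log2 fold change of 3.87 (SE 0.20, adjusted p = 4.76e-06). Its head-to-head partner COL4A6 had 10.0, 10.3 and 9.76 CPM against 0.147, 0.0596 and 0.116 CPM, a log2 fold change of 6.53 (SE 0.26, adjusted p = 1.61e-06). COL4A6 stayed the lower of the pair in every library. COL4A2 had 3.77, 4.64 and 2.94 CPM against 1.18, 1.79 and 1.34 CPM, while COL4A1, with which it shares 226 bases of its window and which forms the common basement membrane trimer with it, had at most 3 counts in any library. COL4A4 had 0.563, 0.489 and 0.373 CPM in K562/IM and 0.761, 1.49 and 1.25 CPM in K562, which was lower in all 3 libraries, and its partner COL4A3 stayed under the floor in every group. The COL4A4 call was lost without K562 replicate 2 (adjusted p 0.0529) and without K562/IM replicate 3 (adjusted p 0.0555).

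Type VI showed opposite directions among its chains. COL6A5 had 30.9, 30.4 and 34.0 CPM in K562/IM and 5.67, 5.31 and 5.08 CPM in K562, a log2 fold change of 2.57 (SE 0.09, adjusted p = 1.18e-06). COL6A3, which encodes the large α3 chain, had 10.3, 9.30 and 11.1 CPM against 0.209, 0.107 and 0.0515 CPM, a log2 fold change of 6.36 (SE 0.35, adjusted p = 6.66e-06). COL6A1 fell instead, with 0.946, 0.937 and 1.31 CPM against 4.06, 5.88 and 5.62 CPM and a log2 fold change of -2.28 (SE 0.23, adjusted p = 1.26e-04). The usual type VI molecule holds an α1, an α2 and an α3 chain, so that in K562/IM the α3 transcript was high where α1 was low. COL6A2, the neighbour of COL6A1 on chromosome 21, had 0.347, 0.406 and 0.168 CPM against 0.160, 0.262 and 0.0515 CPM, which overlapped (adjusted p 0.253).

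Outside these classes COL26A1, a small collagen described in testis and ovary, had 5.68, 5.86 and 5.69 CPM in K562/IM and 0.0368, 0.0954 and 0.0515 CPM in K562, a log2 fold change of 6.51 (SE 0.30, adjusted p = 2.84e-06). COL19A1, a FACIT chain, had 1.47, 1.10 and 1.19 CPM and no count in K562, which is at least 100.6-fold higher against 3 counts over the group and 25.1-fold against 12. COL7A1, the chain of the anchoring fibrils that hold epithelium to its base, had 4.94, 5.01 and 5.79 CPM against 0.663, 1.19 and 0.579 CPM. All 3 had no overlap between the groups, where 4764 of all 13406 genes tested were higher and 4164 lower without overlap. The largest fall among the 26 was that of COL15A1 (chr9:98943179-99070792), a multiplexin, which had 1.22, 1.13 and 1.26 CPM in K562/IM and 26.6, 24.2 and 20.4 CPM in K562, 19.7-fold lower with a log2 fold change of -4.30 (SE 0.14, adjusted p = 6.48e-07). COL9A3, a chain of the cartilage FACIT type IX, had 0.850, 1.03 and 1.13 CPM against 2.30, 2.29 and 2.05 CPM and was also lower. COL9A2 had 1.35, 1.36 and 0.830 CPM against 0.221, 0.501 and 0.695 CPM and COL25A1, a transmembrane collagen of neurons, had 2.21, 1.65 and 1.60 CPM against 0.982, 0.453 and 0.888 CPM. These last calls depended on single libraries: COL9A2 was lost without K562 replicate 1 or 2 or K562/IM replicate 1 or 2 (adjusted p 0.0487 with a log2 fold change of 0.95 for the first, 0.0729, 0.104 and 0.108 for the others), and COL25A1 without K562 replicate 2 (log2 fold change 0.96) or K562/IM replicate 1 (adjusted p 0.0595).

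COL18A1, COL23A1 and COL21A1 passed the adjusted p with a log2 fold change under 1, at 0.36, 0.82 and 0.48. COL10A1, a chain of growth plate cartilage, had 0.335, 0.375 and 0.345 CPM in K562/IM and 0.417, 0.0954 and 0.335 CPM in K562 and did not pass (adjusted p 0.649). Markers of cells that make fibrillar collagen were examined in the same libraries. The summed CPM of 10 fibroblast and mesenchyme genes was 1.76 to 2.25 in K562/IM and 0.626 to 1.21 in K562. FAP had no count in any library, PDGFRA and THY1 had none in K562/IM, and 6 of the 10 were under 10 counts in every K562/IM library. In K562, 5 of the 10 were under 10 counts in every library. No count at all was found for 5 of the 10 in K562/IM and for 3 in K562. Of the rest only DCN and LUM are given, so that they do not stand for the list. The proteoglycan gene DCN had 1.13, 1.19 and 1.08 CPM in K562/IM and 0.196, 0.453 and 0.219 CPM in K562. LUM had 0.527, 0.354 and 0.625 CPM in K562/IM and 0.147, 0.0477 and 0.0643 CPM in K562. The 4 endothelial genes summed to 0.407 to 0.697 CPM in K562/IM and 0 to 0.143 CPM in K562. Their sum was 0.0808 to 0.106 CPM in K562+L and 0.0503 to 0.170 CPM in the labelled libraries. The 4 chondrocyte genes summed to 0.0718 to 0.146 CPM in K562/IM and to at most 0.104 CPM in any other library. The epithelial sum was 657 to 858 CPM in K562 itself and 669 to 707 CPM in K562/IM. In the labelled libraries the fibroblast sum was 1.20 to 1.40 CPM. The part of the DCN, LUM and endothelial transcripts in the result was not tested.

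**Figure D2:**
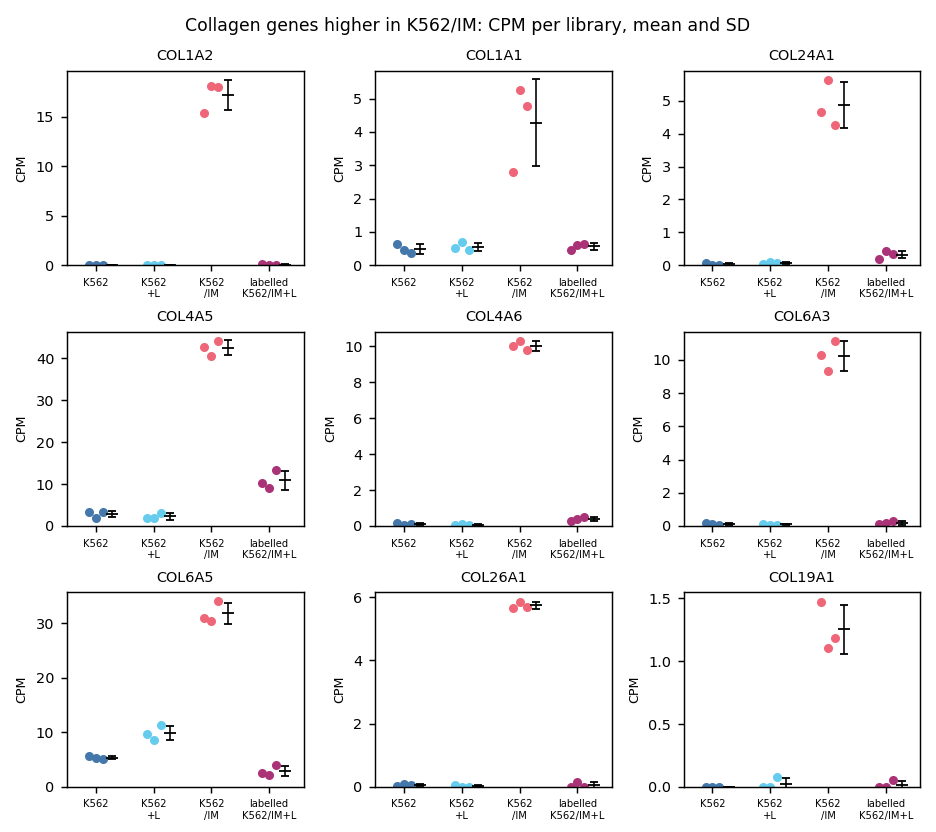
CPM of 9 collagen genes on linear axes from 0; coloured points are the 3 libraries of each group, and the black mark beside them is the mean with its SD. In each panel the 3 K562/IM points lie above all other points, as for COL1A2 at 15.4 to 18.1 CPM against at most 0.0881 CPM elsewhere.

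Lycorine in K562 was compared with no drug to ask what the alkaloid alone does in the parent line. Few collagens differed. Of the 15 collagens above the floor in both groups 1 was called higher and 2 lower, where 5.98% of all genes above the floor in these libraries were called. The same 3 were the calls among the 21 that passed the filter, where 6.39% of all genes tested were called (308 higher and 518 lower). COL7A1 rose from 0.663, 1.19 and 0.579 CPM in K562 to 2.02, 2.63 and 1.84 CPM in K562+L, a log2 fold change of 1.41 (SE 0.32, adjusted p = 0.0121). COL9A3 fell from 2.30, 2.29 and 2.05 CPM to 0.785, 0.947 and 1.09 CPM, a log2 fold change of -1.23 (SE 0.22, adjusted p = 0.00472). COL25A1 fell from 0.982, 0.453 and 0.888 CPM to 0.150, 0.150 and 0.163 CPM, a log2 fold change of -2.31 (SE 0.45, adjusted p = 0.00668). None of these 3 overlapped between the groups, and each was called under every alternative tried. Of all 12927 genes tested, 3317 were higher and 3344 lower without overlap, so that a lack of overlap was common.

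A further 3 collagens passed the adjusted p with smaller changes. With the 3 called this made 6 of the 21 tested, where 37.3% of all genes tested passed the adjusted p. COL6A5 had 9.74, 8.64 and 11.3 CPM in K562+L, a log2 fold change of 0.88 (SE 0.14, adjusted p = 0.00285). COL18A1 had 67.6, 72.9 and 55.4 CPM against 87.4, 109 and 103 CPM, a log2 fold change of -0.62 (SE 0.13, adjusted p = 0.00909). COL15A1 had 29.9, 30.9 and 30.8 CPM, a log2 fold change of 0.36 (SE 0.11, adjusted p = 0.0355). The first and the last were higher with lycorine and COL18A1 was lower, in all 3 libraries each. COL4A2 had 0.716, 0.877 and 0.298 CPM and fell just short of the threshold (log2 fold change -1.19 (SE 0.41, adjusted p = 0.0518)). COL5A1, a fibrillar chain, had 0.496, 0.462 and 0.326 CPM against 0.123, 0.227 and 0.0643 CPM and also fell short (log2 fold change 1.61 (SE 0.56, adjusted p = 0.0542)). COL1A1, COL6A1 and COL4A5 overlapped between K562 and K562+L, with log2 fold changes of 0.18, 0.16 and -0.34, which did not pass the adjusted p.

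The labelled libraries were then compared with K562/IM, the comparison the labels name as lycorine in the resistant line. COL1A1, COL1A2, COL4A5, COL4A6, COL6A3 and COL6A5, which were high in K562/IM, were lower here, while COL18A1, COL6A1, COL15A1 and COL9A3 were higher. Of the 19 collagens above the floor in both groups 8 were called higher and 5 lower, where 25.1% of all genes above the floor in these libraries were called. Of the 29 that passed the filter 11 were called higher and 11 lower, against 28.5% of all genes tested (2022 higher and 1895 lower), and 9 of the 22 calls were of genes that were above the floor in 1 of the groups only. This comparison shares the K562/IM libraries with the one above, so the levels of each group are given.

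COL18A1 (chr21:45405137-45513720), the source of endostatin, had 925, 941 and 880.2 CPM in the labelled libraries and 132, 126 and 127 CPM in K562/IM. That was 7.13-fold higher, a log2 fold change of 2.86 (SE 0.07, adjusted p = 1.83e-07), and no library of any other group came within its range. Exons of COL18A1 overlap those of SLC19A1 on the opposite strand over 1401 bases, 16.4% of its exon length, and the strand setting of the counting is not given in the sources used here. SLC19A1, a folate carrier, had 25.1, 32.1 and 22.9 CPM in the labelled libraries and 66.2, 69.2 and 63.4 CPM in K562/IM, the opposite direction. The other multiplexin, COL15A1, had 10.2, 7.45 and 9.42 CPM against 1.22, 1.13 and 1.26 CPM, a log2 fold change of 2.93 (SE 0.17, adjusted p = 6.37e-06), and remained below its level in K562.

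Of the 4 transmembrane collagens 2 were tested, and both were called higher. COL23A1 had 43.9, 40.3 and 35.2 CPM in the labelled libraries and 14.8, 14.6 and 13.5 CPM in K562/IM, with a log2 fold change of 1.50 (SE 0.10, adjusted p = 1.20e-05). COL25A1 had 4.93, 5.37 and 8.97 CPM against 2.21, 1.65 and 1.60 CPM, with no overlap. COL6A1 rose from 1.06 ± 0.211 CPM to 15.7 ± 0.956 CPM (SD, n = 3), with 16.6, 14.7 and 15.8 CPM in the libraries and a log2 fold change of 3.91 (SE 0.17, adjusted p = 1.81e-06). Its neighbour COL6A2, whose start lies 116 kb away, had 0.918, 0.823 and 1.18 CPM against 0.347, 0.406 and 0.168 CPM, a log2 fold change of 1.70 (SE 0.41, adjusted p = 0.00755), and with all 12 libraries in 1 fit its adjusted p was 0.0839. The type VI chains again went in opposite directions. COL6A5 had 2.49, 2.23 and 3.92 CPM against 30.9, 30.4 and 34.0 CPM, a log2 fold change of -3.43 (SE 0.22, adjusted p = 1.09e-05). COL6A3 had 0.101, 0.167 and 0.319 CPM against 10.3, 9.30 and 11.1 CPM, a log2 fold change of -5.64 (SE 0.35, adjusted p = 9.14e-06). The labelled libraries therefore held more α1 and α2 transcript and less α3 transcript than K562/IM did.

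Of the 3 type IX chains, COL9A3 and COL9A1 were called higher in the labelled libraries and COL9A2 was not called. COL9A3 had 6.49, 6.92 and 7.06 CPM against 0.850, 1.03 and 1.13 CPM, a log2 fold change of 2.79 (SE 0.17, adjusted p = 7.36e-06). COL9A1 had 1.22, 0.572 and 1.41 CPM against 0.108, 0.0416 and 0.0373 CPM. COL9A2 had 1.52, 2.11 and 1.73 CPM against 1.35, 1.36 and 0.830 CPM, which did not pass (adjusted p 0.0760). COL9A3 and COL9A1 did not overlap with K562/IM, and COL9A1, like COL2A1 and COL8A2 that follow, was under the floor in K562/IM and entered the test through the labelled group. COL2A1, the chain of the cartilage fibrils that type IX coats, had 3.71, 4.87 and 3.44 CPM and no count in K562/IM, at least 377-fold higher against 3 counts over the group and 94.3-fold against 12. COL8A2, a chain of the corneal endothelial membrane, had 0.969, 1.14 and 1.43 CPM and no count in K562/IM, at least 115-fold higher against 3 counts and 28.6-fold against 12. The 4 chondrocyte genes ACAN, SOX9, COMP and MATN3 summed to at most 0.0956 CPM in the labelled libraries, and SOX9 had at most 0.0503 CPM there.

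Of the fibrillar genes called in this comparison 5 were lower and 1, COL2A1, was higher. COL1A2 had 0.0881, 0 and 0 CPM, so that 7 counts in 1 library stood against 15.4, 18.1 and 18.0 CPM in K562/IM (log2 fold change -9.13 (SE 0.58, adjusted p = 1.01e-05)). COL1A1 had 0.453, 0.614 and 0.638 CPM. COL24A1 had 0.201, 0.433 and 0.329 CPM. Against K562/IM the last pair fell by 2.88 and 3.89 on the log2 scale. COL11A1 had 0.201, 0.167 and 0.0425 CPM and COL3A1 had no count, which is at least 16.2-fold lower against 3 counts over the group and 4.06-fold against 12. COL26A1 had 0, 0.167 and 0.0106 CPM and COL19A1 had 0, 0 and 0.0531 CPM. In each case no labelled library reached the lowest K562/IM library. Of all 13727 genes tested here, 5279 were lower and 4793 higher without overlap.

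COL4A5 fell to 10.2, 9.07 and 13.4 CPM, a log2 fold change of -1.94 (SE 0.15, adjusted p = 2.58e-05), and its head-to-head partner COL4A6 fell to 0.277, 0.405 and 0.489 CPM, a log2 fold change of -4.64 (SE 0.22, adjusted p = 2.53e-06). The COL4A5 level stayed above that of K562. COL4A4 had 0.843, 1.77 and 1.01 CPM and was higher than in K562/IM, a call that was lost without K562/IM replicate 3 (adjusted p 0.0501) and without replicate 2 of the labelled group (log2 fold change 0.99). COL4A2 had 5.75, 4.42 and 4.76 CPM, which overlapped with K562/IM (adjusted p 0.0990), and COL4A1 had no count in either group. COL7A1 and COL11A2 were lower with log2 fold changes of -0.92 and -0.82, within the fold threshold. COL21A1, a FACIT chain and among the highest collagens of all groups, had 37.3, 36.2 and 43.1 CPM against 47.6, 43.8 and 46.1 CPM (log2 fold change -0.21, adjusted p = 0.0728). It had 35.8, 33.9 and 28.6 CPM in K562 and 23.6, 25.2 and 28.8 CPM in K562+L, and was called in none of the 4 comparisons at the fold threshold.

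**Figure D3:**
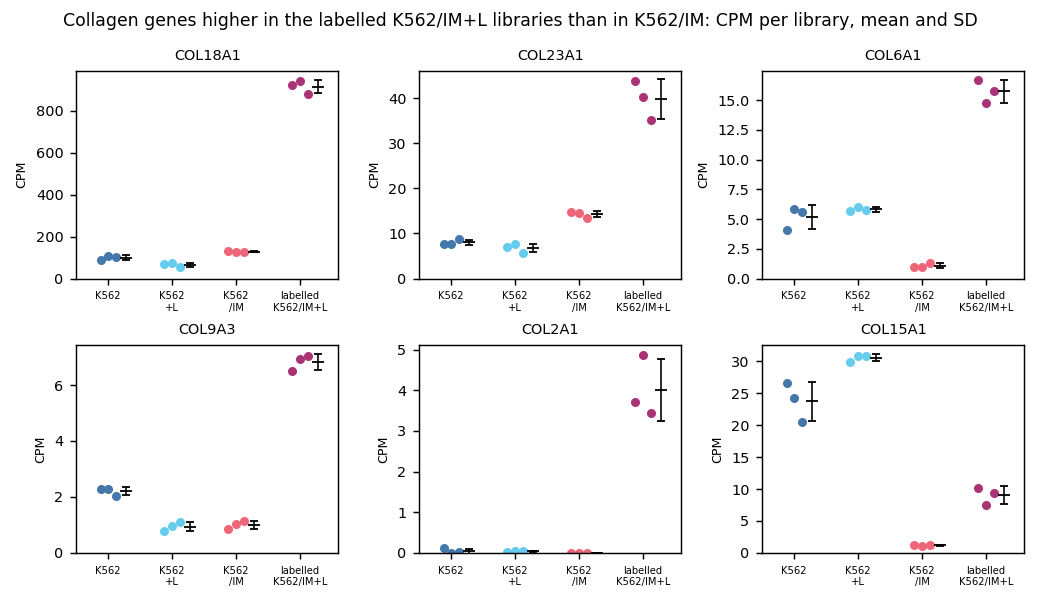
CPM of 6 collagen genes on linear axes from 0; coloured points are the 3 libraries of each group and the black mark is the mean with its SD. The labelled libraries lie above all others in each panel but that of COL15A1, where they lie between K562/IM and K562; COL18A1 is at 880.2 to 941 CPM there and at most 132 CPM elsewhere.

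**Figure D4:**
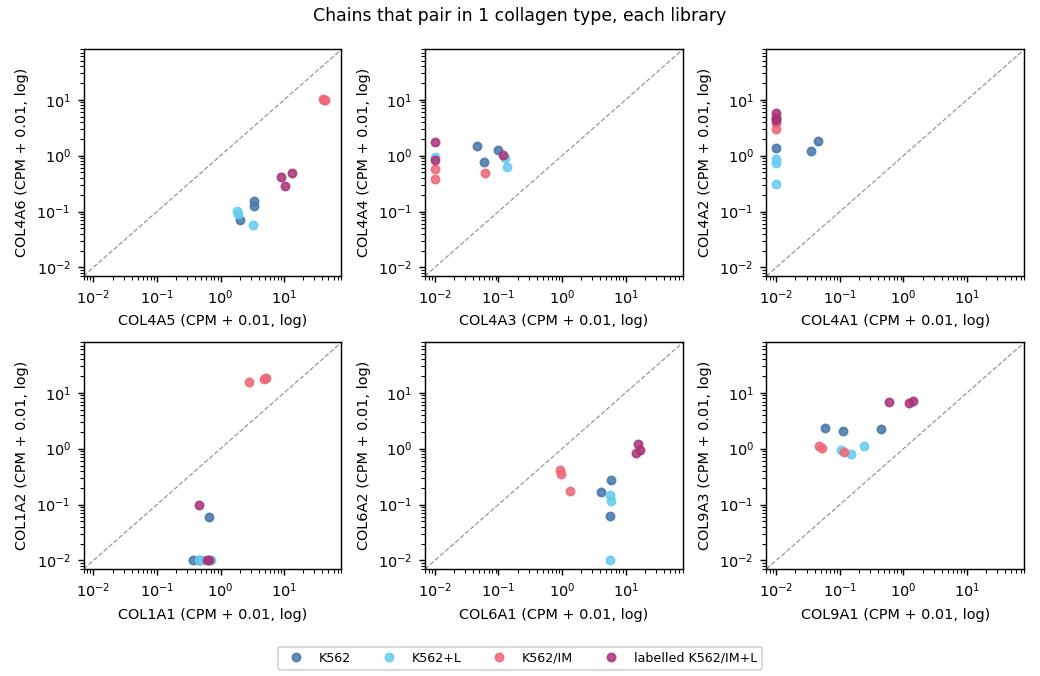
Each panel sets a pair of chain genes of 1 collagen type against each other, 1 point per library, as CPM + 0.01 on log axes; the dashed line marks equal CPM. COL4A5 and COL4A6 lie at their highest in K562/IM together, COL4A1 stays at or near 0 where COL4A2 is between 0.298 and 5.75 CPM, and only K562/IM has COL1A2 above COL1A1.

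With their label in doubt, the labelled libraries were also set against K562. Of the 15 collagens above the floor in both groups 10 were called higher and 1 lower, where 22.1% of all genes above the floor in these libraries were called. Of the 25 that passed the filter 16 were called higher and 1 lower, against 23.8% of all genes tested (1977 higher and 1185 lower), but 6 of the 16, COL2A1 among them, were not above the floor in K562 and entered the test through the labelled group. COL18A1 was 9.16-fold higher, a log2 fold change of 3.18 (SE 0.11, adjusted p = 7.93e-06). COL23A1, COL9A3 and COL6A1 were higher by 2.28, 1.61 and 1.58 on the log2 scale. COL2A1, COL25A1, COL4A2 and COL4A5 followed by p, with log2 fold changes of 6.54, 3.03, 1.77 and 1.88. The single fall was that of COL15A1, -1.42 (SE 0.16, adjusted p = 2.83e-04) on the log2 scale. COL1A1 and COL6A3, by contrast with their levels in K562/IM, overlapped with K562 (adjusted p 0.670 and 0.478). Of these calls 4 depended on single libraries. COL4A6 was lost without K562 replicate 2 or 3 or labelled replicate 2 or 3 (adjusted p up to 0.0915), and COL9A1 without K562 replicate 1 or 3 or labelled replicate 1 or 3 (up to 0.0872). COL11A2 was lost without K562 replicate 1 or 3 or any labelled replicate (up to 0.126), and COL24A1 without K562 replicate 2 or 3 or labelled replicate 2 (up to 0.0649).

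The effect labelled as lycorine differed between the lines for most collagens, by a test of the difference itself over all 12 libraries. Of 31 collagens tested 24 passed an adjusted p under 0.05, where 61.7% of all genes tested passed. The change was higher in the resistant line as labelled for 13 of the 24 and lower for 11. COL18A1 fell by 0.62 on the log2 scale in K562+L and rose by 2.86 in the labelled libraries, a difference of 3.45 (SE 0.15, adjusted p = 7.87e-09). COL6A5 went the other way, with a difference of -4.34 (SE 0.26, adjusted p = 9.43e-08). COL9A3, lower with lycorine in K562, had a difference of 3.99 (SE 0.25, adjusted p = 1.38e-07). COL7A1, higher with lycorine in K562, had a difference of -2.35 (SE 0.37, adjusted p = 1.75e-04). COL21A1 did not pass, with a difference of 0.11 (SE 0.15, adjusted p = 0.561). COL1A2 did not pass either, with a difference of -5.50 (SE 71.3, adjusted p = 0.961). It had no count in K562+L, and only 1 library each of K562 and the labelled group had any. COL11A1 fell just short, with a difference of -3.41 (SE 1.38, adjusted p = 0.05001). Since most genes tested passed, the share of collagens says little about the family.

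**Figure D5:**
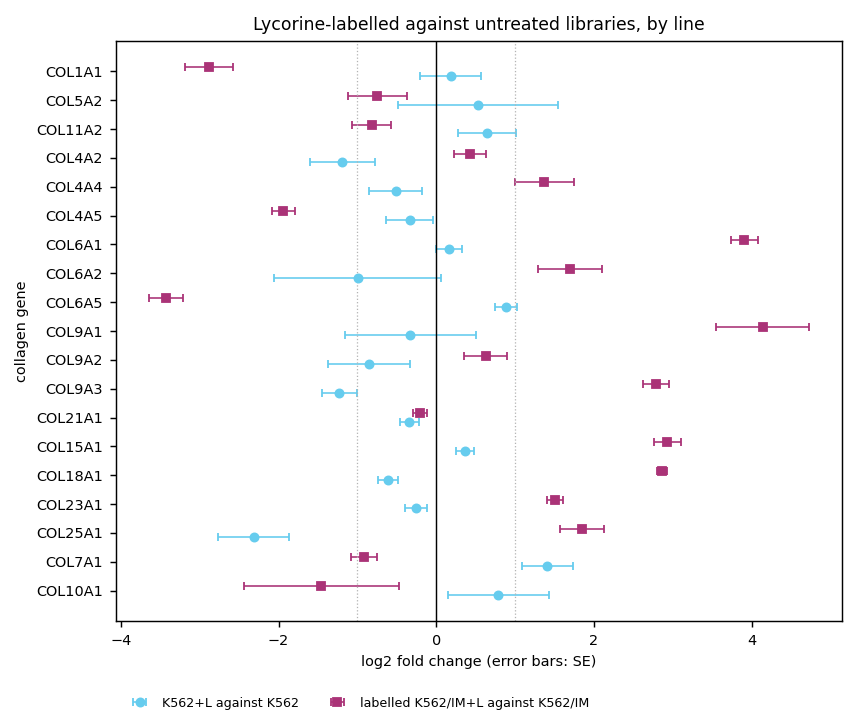
Log2 fold changes of the 19 collagens tested in both comparisons, with SE as error bars; circles are K562+L against K562 and squares are the labelled libraries against K562/IM, and the dotted lines mark −1 and 1. COL18A1, COL9A3 and COL25A1 have circles below 0 and squares above 1, COL6A5 and COL7A1 have circles above 0 and squares below 0, and the marks of COL21A1 lie close together.

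The genes that make, move and bind collagen were counted from a list of 61. In K562/IM against K562, 7 of the 45 tested were called higher and 1 lower. In K562+L against K562, 1 of 43 was called higher and 4 lower, in the labelled libraries against K562/IM 6 of 46 higher and 8 lower, and in the labelled libraries against K562 8 of 44 higher and 2 lower. In shares these were 17.8%, 11.6%, 30.4% and 22.7%, where 19.1%, 6.39%, 28.5% and 23.8% of all genes tested were called. All but that of K562+L against K562 lay near the share of all genes, and that comparison held 5 calls. Of the 16 tested genes of chain modification and folding, 9 passed the adjusted p in K562+L against K562 (2 higher and 7 lower) and 13 in K562/IM against K562 (5 higher and 8 lower), all with a log2 fold change under 1, where 37.3% and 57.1% of all genes tested passed the adjusted p. SERPINH1, the collagen chaperone, had 88.7 ± 11.6 CPM in K562, 62.5 ± 7.83 in K562+L, 117 ± 4.17 in K562/IM and 134 ± 14.1 in the labelled libraries (SD, n = 3). Its log2 fold change was 0.40 (SE 0.10, adjusted p = 0.0115) in K562/IM against K562 and -0.51 (SE 0.13, adjusted p = 0.0196) with lycorine in K562. The prolyl hydroxylase subunits P4HA2 and P4HB and the cyclophilin PPIB were lower in K562+L than in K562, with log2 fold changes of -0.82, -0.44 and -0.92, while that of P4HA1 was -0.02. The lysyl hydroxylases PLOD1, PLOD2 and PLOD3 were lower in K562/IM than in K562 (-0.65, -0.76 and -0.49) and, between K562/IM and the labelled libraries, higher in the latter (0.76, 0.84 and 0.75), all with an adjusted p under 0.05.

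Past the endoplasmic reticulum, the procollagen N-propeptidase ADAMTS14 had 124, 114 and 132 CPM in K562/IM and 14.3, 14.7 and 14.5 CPM in K562, a log2 fold change of 3.09 (SE 0.08, adjusted p = 3.82e-07). It had 6.03, 5.73 and 5.43 CPM in K562+L and 13.1, 13.2 and 12.5 CPM in the labelled libraries, all below the lowest K562/IM library. The export gene SEC24D, a COPII coat subunit, was called higher in K562/IM at 1.29, and CREB3L1, a factor that regulates secretion, lower in K562+L at -1.44. Of the cross-linking enzymes LOX was lower in the labelled libraries, with 0.252, 0.558 and 0.595 CPM against 1.82, 1.14 and 1.28 CPM, and LOXL4 was higher in both resistant-line groups than in K562, with 3.59, 3.55 and 3.58 CPM in K562/IM and 15.5, 12.6 and 11.4 CPM in the labelled libraries against 0.921, 0.322 and 0.373 CPM.

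Among receptors the endocytic collagen receptor MRC2 had 79.1, 77.6 and 79.4 CPM in K562/IM and 352, 356 and 307 CPM in the labelled libraries against 22.9, 27.4 and 29.6 CPM in K562, with log2 fold changes of 1.56 and 3.65. GP6, the platelet collagen receptor, had 9.05, 7.77 and 10.6 CPM in K562/IM against 1.17, 0.775 and 0.785 CPM in K562 and was called higher in K562+L as well, at 2.62, 2.12 and 2.29 CPM. DDR1, a receptor kinase for collagen, had similar means in the 4 groups, at 66.9 ± 2.92, 72.5 ± 3.68, 73.7 ± 3.98 and 65.7 ± 1.59 CPM (SD, n = 3), in the order K562, K562+L, K562/IM and labelled K562/IM+L. Its relative DDR2 had 1.55, 1.20 and 1.31 CPM in the labelled libraries against 10.2, 8.88 and 10.2 CPM in K562/IM. ITGA2, the α2 chain of a collagen integrin, stayed at or under 0.335 CPM in every library. Of the enzymes that break collagen down, MMP14 had 10.9, 8.86 and 9.77 CPM in K562/IM against 1.39, 1.94 and 1.88 CPM in K562, and MMP9 had 0.616, 0.349 and 0.521 CPM in the labelled libraries against 0.0838, 0 and 0.0840 CPM in K562/IM.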

How the data were processed

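Polyadenylated RNA of 12 libraries was sequenced, 3 per group, and libraries were grouped by the cell line and treatment in their labels. The deposited table held raw whole-number counts by gene symbol, 1 column per library, which the authors had not normalized. The submitters' processing notes name FastQC, STAR, StringTie, DESeq2 and the build hg38, without versions, and the counting options, strand setting and annotation are not given in the sources used here. Total counts were 75093844 to 107344598 per library. Of 23289 values from 1 to 25, 66.4% were a multiple of 4 or 1 above, where 48% of whole numbers up to 25 are of that kind, so that a fragment may be worth about 4 counts and counting noise may be larger than the totals give.

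From the counts, R 4.3.3 with edgeR 4.0.16 and DESeq2 1.42.0 were used. In each pairwise comparison the 6 libraries passed through filterByExpr (minimum count 10) and TMM scaling before the quasi-likelihood test, adjusted by Benjamini-Hochberg over all genes tested. The difference between the lines was fitted over all 12 libraries. CPM used TMM factors over the 12 libraries. Positions and exon lengths came from GENCODE 29, which placed all 44 genes, and start windows from RefSeq. The members and lists were chosen with earlier results of these data known, so that they are not independent evidence.

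Every collagen row could be named. Values per library were given for collagens called in at least 1 comparison, statistics for up to 10 per comparison by p and for their partner chains, and pathway genes were 12 fixed ones and the called gene of largest change in each role. COL21A1, COL10A1 and COL5A1, the overlapping gene SLC19A1, ABCB1 and the markers DCN and LUM were named besides. Simulations planted 200 changed genes, each 4-fold higher or lower in 1 group. Levels were each gene's mean over the 12 libraries, and all other genes were unchanged. Pairwise fits recovered 157, 165, 166 and 163 with 4, 5, 7 and 4 false calls in the 4 comparisons in the order K562+L against K562, K562/IM against K562, labelled against K562/IM and labelled against K562, and the interaction recovered 170 with 5 false calls. These figures do not carry over to genes at or near 0 in a group or to data where many genes differ. Same-numbered libraries deviated together (correlation over 0.1) in 2 of 18 pairs (−0.23 to 0.16), so that the numbers were not used to pair libraries. Of the erythroid markers 1 is not reported here and was left out of their sum. Replicates differed beyond counting noise and were all kept.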

Additional observations from a re-analysis of the deposited data

Results flagged for a closer look

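The collagens whose lycorine-labelled change differed between the lines, by the interaction test over all 12 libraries (edgeR's quasi-likelihood test, adjusted p under 0.05), were looked at again. All values are the log2 change in the resistant line as labelled minus that in K562, and they include the doubt about the libraries labelled K562/IM+L. The change was higher in the resistant line for COL18A1 (3.45), COL9A3 (3.99), COL6A1 (3.72), COL25A1 (4.13), COL15A1 (2.54), COL23A1 (1.74), COL4A4 (1.87), COL4A2 (1.59), COL9A2 (1.45) and COL9A1 (4.43). It was lower for COL6A5 (-4.34), COL4A5 (-1.63), COL4A6 (-4.12), COL6A3 (-5.28), COL1A1 (-3.09), COL7A1 (-2.35) and COL11A2 (-1.48).

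For 7 more at least 1 library had no count of the gene. COL2A1 (11.65), COL8A2 (12.48), COL19A1 (-10.24) and COL3A1 (-11.72) had no count over a whole group. Their fitted difference depends on the prior count and is no size. COL14A1 (4.88), COL24A1 (-5.65) and COL26A1 (-4.98) had counts in every group. Their differences rest on few counts, as COL14A1 had 3 over K562/IM, COL24A1 had 5 over K562 and COL26A1 had 5 over K562+L. COL19A1 was no longer called without K562+L replicate 3, the only library of that group with counts of it (adjusted p 1.00). COL26A1 was lost without K562+L replicate 1 (difference -1.20, adjusted p 0.821) and in 6 other fits without 1 library (adjusted p up to 0.0585), and COL14A1 in 6 and COL9A2 in 8 such fits (adjusted p up to 0.080 and 0.117). No group held more than 3 libraries, so that outlying libraries were not looked for.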

How the results depend on the processing

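The collagen and pathway counts were recomputed under each alternative. Of the named gene values 707 of 719 kept their direction and call in fits other than leaving out a library and 617 of 666 in fits leaving 1 out, and 0 reversed. With 10 counts in every library required, fewer genes were tested. The collagen calls were then 12 of 15 tested in K562/IM against K562 and 13 of 19 in the labelled libraries against K562/IM. They were 11 of 15 in the labelled libraries against K562 and 14 of 15 in the interaction. In the main fits they were 21 of 26, 22 of 29, 17 of 25 and 24 of 31, in the same order. With no fold threshold the collagen calls in K562+L against K562 were 6 of 21 tested, where 37.3% of all genes tested passed. The pathway calls were then 17 of 43 tested in K562+L against K562 and 28 of 45 in K562/IM against K562. They were 33 of 46 in labelled against K562/IM and 22 of 44 in labelled against K562. Of all genes tested 4821 of 12927, 7661 of 13406, 9169 of 13727 and 7446 of 13307 passed, in the same order. With a floor 4 times as high 12 collagens were above it in K562, 11 in K562+L, 22 in K562/IM and 19 in the labelled libraries. A floor met in at least 1 of the 3 libraries gave 24, 24, 28 and 31, for the groups in the same order. The labelled libraries then had the most, where K562/IM had the most in the main count. Leaving out 1 library gave 3 to 4, 18 to 22, 21 to 23 and 13 to 16 collagen calls in the same 4 comparisons, 4 to 6, 8 to 10, 12 to 15 and 9 to 10 pathway calls, and 21 to 24 in the interaction. COL4A2 was also called in K562+L against K562 under DESeq2, upper-quartile normalization, both other filters, all 12 libraries in 1 fit and counts divided by 4. Upper-quartile scaling moved the median of all genes from 0.02 to 0.17 (log2) in the labelled libraries against K562 and from -0.02 to 0.11 in the interaction, and no collagen call in them was lost. The replicate numbers share only a number: with the replicate block 3, 20, 22 and 13 collagens, 4, 8, 14 and 8 pathway genes and 22 in the interaction were called, and the last pairwise fit lost COL4A6, COL9A1, COL11A2 and COL24A1. The step of about 4 counts limits the genes at or near 0.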
